A study of Mus musculus with 13 samples.

Results

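Cym (ENSMUSG00000046213), the mouse gene of chymosin, was 1 of the 43629 genes listed for 13 RNA sequencing libraries of thymic lymphomas and thymus, and it was chosen by its measured pattern in these same libraries, high in every lymphoma and near 0 in every thymus. Its own levels are therefore given as a description, with no test. The genes within 1 Mb of it on the chromosome were taken by position alone and were tested.

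The libraries came from 5 Atm-/- lymphomas of 129S6/SvEv mice, 5 Rag2c/c p53-/- lymphomas of mice whose background mixes C57BL/6 with 129S6/SvEv, and 3 thymuses of C57BL/6 mice of wild-type genotype (WT). Atm-/- mice lack the kinase ATM, which signals DNA breaks. Rag2c/c p53-/- mice carry a RAG2 recombinase without its C-terminal part and lack the tumor suppressor p53. The labels give no age and no agent for any of the animals, and they state that the WT libraries were re-used from an earlier series. Strain and source series go with the groups, so their part in a difference between lymphomas and thymus cannot be told apart from that of the genotype or the tumor. Each library was made from the RNA of a cell suspension, in which a higher share of cells with a transcript and more transcript per cell cannot be told apart.

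Chymosin is an aspartic protease of the pepsin family. It is known as the milk-clotting enzyme of the stomach of newborn mammals, where it cleaves casein, and it is made as an inactive precursor that activates itself in acid. Its relatives include the pepsins, the lysosomal cathepsin D, cathepsin E, napsin, renin and the β-secretases. The human counterpart is a pseudogene, and thymocytes are not a textbook site of its expression.

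Cym lies on the minus strand of chromosome 3, from 107211293 to 107221732 (GRCm38). Its 1 transcript in GENCODE vM21 has 9 exons with 1236 bases in all, and 0 other genes of that annotation overlap it. The 250 bases before its start are shown, as the sequence before the annotated start of the gene whose reads were counted in the lymphomas, since where transcription starts there was not measured. They span chr3:107221733-107221982 and are printed 5′ to 3′ on the minus strand, from RefSeq sequence of GRCm38.p6, with the match to TATAAA in capitals.

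Cym promoter: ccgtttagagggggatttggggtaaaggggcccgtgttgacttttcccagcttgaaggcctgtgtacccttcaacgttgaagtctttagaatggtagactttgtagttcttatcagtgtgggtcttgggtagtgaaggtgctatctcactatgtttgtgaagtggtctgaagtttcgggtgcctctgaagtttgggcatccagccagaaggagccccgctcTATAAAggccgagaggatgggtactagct

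The TATAAA match begins 29 bases before the start. Searched on both strands, TATAAA was found in 12.4% of the 32851 promoters of that length. The other letters searched had 0 matches in the Cym window. These were the E box CANNTG, which 66.2% of the promoters held, a Runx motif TGTGGT (14.0%), an Ets motif GGAAGT (19.7%), a STAT motif TTCNNNGAA (7.02%) and the heptamer of V(D)J recombination signals CACAGTG (5.52%). A match or its absence describes these letters only.

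In Atm-/- lymphomas, replicates 1 to 5 had 4878, 1320, 4110, 1100 and 2459 normalized counts of Cym, which are read counts divided by a size factor of the library. In Rag2c/c p53-/- lymphomas, replicates 1 to 5 had 2992, 5539, 2415, 1091 and 3331. The WT thymuses had 3, 0 and 3. All 10 lymphomas thus lay far above the 3 thymuses, while the 2 lymphoma groups overlapped over most of their range.

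The mean was 3074 ± 1621 (SD, n = 5) in Rag2c/c p53-/- lymphomas and 2773 ± 1675 (SD, n = 5) in Atm-/- lymphomas. These 2 means, the first and the second in the order of the groups, differed by less than either SD. WT thymus came last, with 2.0 ± 1.73 (SD, n = 3). The highest lymphoma had 5.08-fold the level of the lowest over all 10 lymphomas and 4.43-fold within the Atm-/- group, so the spread between tumors of 1 genotype was wide. The lowest lymphoma, Rag2c/c p53-/- replicate 4, still had 363.7 times the value of the highest thymus.

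The thymus values rest on very few reads. WT replicates 1 and 3 had an estimated 6 reads (exact Poisson 95% interval 2.20 to 13.1) and 5 reads (1.62 to 11.7), which correspond to at most 6.53 and 6.92 normalized counts. In replicate 2, where 1 read was worth 3.243 normalized counts, 0 reads allow up to 9.73 normalized counts by the limit of 3 reads. That limit is of another kind, and less wide, than the intervals of replicates 1 and 3. These limits cover counting error only. The lymphomas held an estimated 578 to 5739 reads of Cym, and the lowest lymphoma value, 1091, lay far above each of the 3 thymus limits.

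**Figure D1:**
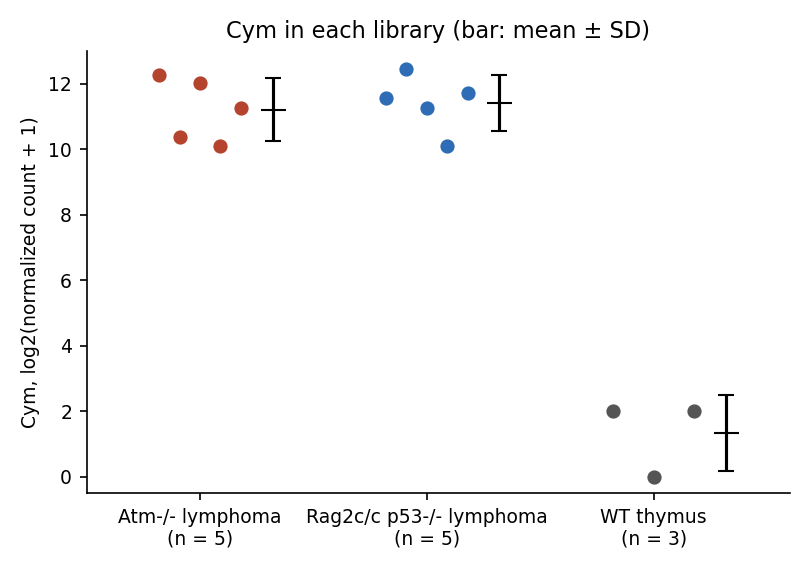
Cym in each of the 13 libraries as log2(normalized count + 1), by group, with the group mean ± SD beside the points. The 10 lymphomas lie between 10.09 and 12.44, and the 3 thymuses lie at 0.0 or 2.0.

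Per kb of exon, Cym stood at 2244 ± 1355 (SD, n = 5) normalized counts in Atm-/- and 2487 ± 1312 (SD, n = 5) in the Rag2c/c p53-/- group, against 1.62 ± 1.40 (SD, n = 3) in WT thymus. On this scale Cym was above 90.1% to 99.3% of the 15759 tested genes with a known exon length in each lymphoma. In Atm-/- replicate 1, 105 of these genes had a higher level per kb. The gene was thus among the more abundant transcripts of most tumors rather than a trace.

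Few genes met cut-offs set near the levels of Cym itself. With all thymuses at or under 3 and all lymphomas at or over 100 normalized counts, 2 genes of the table remained, Cym and Gm9008. With all lymphomas at or over 500, or at or over 1000, Cym was the 1 gene left. Gm9008 (chromosome 6), named after its values were seen, had 126 to 439 normalized counts in Atm-/- and 328 to 355 in Rag2c/c p53-/- lymphomas, against 1, 3 and 1 in WT thymus. The limit of 3 equals the highest thymus value of Cym, and 1000 lies just under its lowest lymphoma value, 1091. These counts thus describe the pattern that Cym was selected on. Genes with a little more in thymus fell outside, such as Aif1l. It had 0 to 14 in WT, 406 to 1977 in Atm-/- and 1077 to 1895 in Rag2c/c p53-/- lymphomas.

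Depth did not order the libraries by Cym. Estimated from the worth of 1 read, libraries held 6.37 to 39.6 M reads on genes, and the library with the highest Cym level, Rag2c/c p53-/- replicate 2, was also the shallowest (6.37 M). Over the 10 lymphomas, log2 Cym and log2 depth had Pearson's r = 0.16 and Spearman's rho = 0.18, and r = -0.01 without the 2 lymphomas farthest from the median of Cym. Library totals lay between 19788898 and 21591289, and size factors recomputed from the 13 libraries lay between 0.993 and 1.028.

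T cell genes were detected in every group, and markers of other cells differed between groups. A call of changed needed an adjusted p (limma, Benjamini-Hochberg) below 0.05, a log2 difference of 1 or more in size, and 10 or more normalized counts on average in either group compared. Against WT thymus, 12.6% of all 15872 tested genes were called higher and 17.0% lower in Atm-/- lymphomas, and 9.77% were called higher and 13.9% lower in Rag2c/c p53-/- lymphomas. The counts of the short lists that follow stand beside these shares. Summed over 10 T cell genes, lymphomas had 78484 to 158170 normalized counts and WT thymus had 155910 to 240394, and 0 of the 10 genes was at 0 in all libraries of a group. Of the 10, 2 fell in Atm-/- lymphomas (Cd8a and Rag1) and 1 in Rag2c/c p53-/- lymphomas (Rag1). Thy1, the most abundant T cell gene in the lymphomas, had means of 28899 in Atm-/-, 25890 in Rag2c/c p53-/- and 22080 in WT. Of 6 B cell genes, 4 fell in Atm-/- and 5 in the Rag2c/c p53-/- group, and their sum went from 1602 to 1957 in WT thymus to 211 to 977 and 135 to 572. The most abundant of them in WT thymus, Cd79b, had means of 710.0 there and of 56.6 and 118.2 in the lymphomas. Blk, the most abundant by its mean over all libraries, did not pass in either group (-0.31 and -1.16, limma adjusted p = 0.848 and 0.461). It had 608, 671, 17, 887 and 32 in Atm-/- lymphomas, 53 to 413 in Rag2c/c p53-/- lymphomas and 205 to 245 in WT thymus.

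Some myeloid and stromal genes rose. Over all genes, 12.6% and 9.77% were called higher in the 2 lymphoma groups, so 1 of 6 is near that share. Of 6 myeloid genes, 3 rose in Atm-/- and 1 in the Rag2c/c p53-/- group, with sums of 7202 to 12047, 4360 to 8897 and, in WT, 3704 to 4178. Lyz2, the most abundant, had means of 4811, 3000 and 1934. Of 6 fibroblast and endothelial genes, 4 rose in Atm-/- lymphomas, and in Rag2c/c p53-/- lymphomas 3 rose and 1 fell. Their sums were 7802 to 20727, 2944 to 6512 and, in WT, 3709 to 3846, with Pecam1 as the most abundant (4991, 3962 and 3594). Pecam1 made up most of the WT sum and did not pass in either group. Col1a2 had means of 4475, 357.6 and 30.7 and rose in both groups, and Cdh5 was the gene that fell. The other genes that rose in Atm-/- lymphomas had lower means there than Col1a2. Col1a1, Col3a1 and Sparc had 1903, 973.2 and 796.8, against 43.0, 43.0 and 37.7 in WT. Of 6 thymic epithelial genes, 3 fell in each lymphoma group, with sums of 194 to 427, 280 to 1334 and, in WT, 715 to 984. Psmb11, a defining gene of cortical thymic epithelium, was at 0 in all 5 Atm-/- lymphomas. It had 0 to 1 in Rag2c/c p53-/- lymphomas and 36 to 122 in WT thymus. Foxn1, which also fell in both groups, had 0 to 2, 1 to 7 and, in WT, 19 to 34. Psmb11 and Foxn1 reached 10 in thymus only, so they entered the test through it and could only be called lower. Ccl25, the most abundant in Atm-/- lymphomas and WT thymus, had means of 158.0, 294.8 and 276.7. Epcam, the most abundant in Rag2c/c p53-/- lymphomas, had means of 62.8, 471.8 and 251.7. In Rag2c/c p53-/- replicates 1 to 5 it had 22, 875, 540, 172 and 750, and it made up most of the highest sum there. Of 5 tested erythroid genes, 0 passed the limma test in either group, with sums of 934 to 6939, 838 to 4762 and, in WT, 1109 to 2408 over 6 genes. Hbb-bs led that list (1569, 1040 and 961.0).

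Among the lymphomas, the level of Cym varied with several of these lists to a similar, moderate degree. Against the median log2 level of the myeloid list, r was -0.62 and rho -0.53 over the 10 lymphomas, and r was -0.41 without the 2 farthest lymphomas. Against the fibroblast and endothelial list, r was -0.52 and rho -0.49, and r was -0.52 without those 2. For the B cell list r was 0.47 and rho 0.53, and r was 0.16 without those 2. The erythroid list gave 0.34 and 0.43, and the T cell and thymic epithelial lists gave 0.19 and 0.16 and -0.03 and -0.05. The points share their libraries and size factors, and the part of these cells in the level of Cym was not tested.

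Stomach genes other than Cym stayed near 0, with 1 exception. Of 16 stomach mucosa genes of the table, 15 were above 0 in at least 1 library and 1 reached the level needed for a test, which was 10 normalized counts or more in no fewer than 3 libraries. The sum over all 16 was 8 to 16 in Atm-/-, 9 to 46 in Rag2c/c p53-/- lymphomas and 6 to 23 in WT thymus. The pepsinogens Pgc and Pga5 had 0 to 4 and 0 to 3, the gastric proton pump gene Atp4a had 0 to 3, the mucin gene Muc5ac had 0 to 5, and Gast, which encodes gastrin, was at 0 in all 13 libraries.

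The tested stomach gene was Ghrl, which encodes ghrelin. It had 7, 14, 3, 4 and 9 in Atm-/- lymphomas, 8, 34, 11, 6 and 5 in Rag2c/c p53-/- lymphomas, and 1, 0 and 6 in WT thymus. Its log2 difference from WT was 1.64 ± 0.74 (SE, limma adjusted p = 0.0838) in Atm-/- and 2.19 ± 0.74 (SE, adjusted p = 0.0319) in Rag2c/c p53-/- lymphomas. The second passed, but both groups overlapped with WT and the call ended without WT replicate 1 (2.05) or replicate 2 (1.55) and with a pseudocount of 10 (0.79). Ghrl reached 10 in exactly 3 libraries, Atm-/- replicate 2 and Rag2c/c p53-/- replicates 2 and 3, so it was not tested when any of these was left out. All 3 were lymphomas, so Ghrl entered the test only through them and could only be called higher.

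Of the 10 aspartic protease genes listed, 9 were in the table, Cym among them, and Ren2 was not matched. Of the 8 other than Cym, 5 could be tested, Ctsd, Ctse, Napsa, Bace1 and Bace2. In Atm-/- lymphomas 1 rose and 1 fell, and in Rag2c/c p53-/- lymphomas 1 rose and 2 fell, beside the shares of all tested genes given above. The median log2 difference over the 5 was 0.16 and 0.14, against -0.02 and -0.02 over all tested genes. Both comparisons use the same 3 thymuses.

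Ctse, which encodes the endosomal cathepsin E of immune cells and stomach, was the protease gene that rose. It had 7498, 7184, 4079, 9102 and 4236 normalized counts in Atm-/- lymphomas, 2980, 2773, 4222, 3770 and 3180 in Rag2c/c p53-/- lymphomas and 1092, 1169 and 1057 in WT thymus. Every lymphoma was above every thymus. The log2 difference was 2.46 ± 0.25 (SE, limma adjusted p = 1.15e-05) in Atm-/- and 1.6 ± 0.25 (SE, adjusted p = 3.81e-04) in Rag2c/c p53-/- lymphomas. Between the lymphoma groups it was 0.87 ± 0.22 (SE, adjusted p = 0.0202), under the threshold of 1 on the log2 scale. Unlike Cym, Ctse had a clear level in WT thymus, 348.9 ± 18.1 (SD, n = 3) per kb of exon against 1.62 ± 1.40 for Cym.

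Ctsd, the gene of the lysosomal cathepsin D, had the highest level per kb of the list in every group, 3419 ± 227.6 (SD, n = 5) in Atm-/-, 3387 ± 369.8 (SD, n = 5) in Rag2c/c p53-/- and 3064 ± 378.8 (SD, n = 3) in WT. Its log2 differences from WT, 0.16 and 0.14, did not pass the limma test (adjusted p = 0.323 and 0.402). Of the other transcripts, those of Ctsd, Pgc and the gene model Gm49369 aligned to that of Cym, over 84 bases with 77.4% identity, 340 bases with 64.7% and 60 bases with 81.7%. Pgc had 0 to 4 normalized counts, and no level is given here for Gm49369. Whether these transcripts share reads with Cym was not tested.

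The β-secretase gene Bace1 fell, from 318 to 350 normalized counts in WT thymus to 38 to 128 in Atm-/- and 30 to 90 in Rag2c/c p53-/- lymphomas. Its log2 differences were -2.48 ± 0.42 (SE, limma adjusted p = 4.97e-04) and -2.54 ± 0.42 (SE, adjusted p = 6.03e-04). Napsa, the gene of napsin, had 234 to 241 in WT, 57 to 213 in Atm-/- and 46 to 90 in Rag2c/c p53-/- lymphomas, and fell in the latter (-1.69 ± 0.42, SE, adjusted p = 0.00657) with -0.91 in Atm-/- (adjusted p = 0.0905). Bace2 ranged most widely, with 5 to 84 in Atm-/-, 0 to 183 in Rag2c/c p53-/- lymphomas and 0 to 2 in WT, and did not pass (3.64 and 3.26, limma adjusted p = 0.0701 and 0.112). Bace2 reached the 10 needed for a test in lymphomas only. Renin, Ren1, had 0 to 3 throughout.

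**Figure D2:**
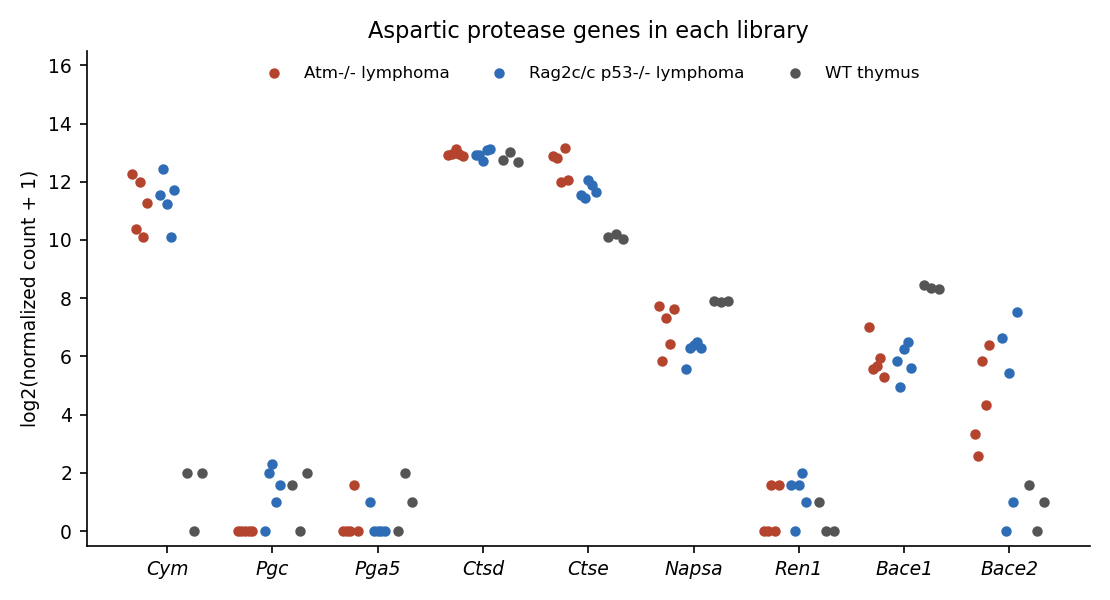
The 9 aspartic protease genes of the table in each library, as log2(normalized count + 1), coloured by group, to be compared within a gene only. Cym is the gene with all 3 thymuses at 2.0 or below and all 10 lymphomas above 10, while Ctse is higher in lymphomas over a thymus level of 1057 to 1169 normalized counts.

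The genes around Cym are given as a description of its neighbourhood. The table lists 58 other genes within 1 Mb, of which 49 were above 0 in at least 1 library and 29 were tested. In Atm-/- lymphomas 12 of the 29 changed (41.4%, against 29.5% of all tested genes), 3 higher and 9 lower. In Rag2c/c p53-/- lymphomas 9 changed (31.0%, against 23.6%), 2 higher and 7 lower. The median log2 difference of the 29 was -0.31 and -0.69. Called neighbours were higher in 3 and lower in 9 of 29 beside 12.6% and 17.0% of all genes, and higher in 2 and lower in 7 of 29 beside 9.77% and 13.9%. Over all genes, too, more were called lower than higher.

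The genes next to Cym were hardly transcribed. On the lower-coordinate side the nearest gene is Kcna10, a potassium channel gene 15.6 kb away, at 0 in all 13 libraries. On the other side A630076J17Rik, 8.88 kb away, had 0 to 5 normalized counts, and Prok1, the gene of a prokineticin 13.8 kb away, had 0 to 7. The nearest tested gene on the higher side was Lamtor5, 57.1 kb away, a subunit of the lysosomal Ragulator complex. It had 1061 to 1660 in Atm-/-, 738 to 1253 in Rag2c/c p53-/- lymphomas and 909 to 1022 in WT thymus. Its differences of 0.39 ± 0.19 and 0.04 ± 0.19 (SE, limma adjusted p = 0.119 and 0.898) did not pass.

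All of the neighbours that changed on the lower-coordinate side, which is downstream of Cym on its strand, were lower. Of 13 tested genes there, 8 fell in Atm-/- and 6 in the Rag2c/c p53-/- group, with medians of -1.42 and -1.50. These are 61.5% and 46.2% of the 13, beside 17.0% and 13.9% of all genes called lower. Of 16 tested genes on the higher side, 3 rose and 1 fell in Atm-/- lymphomas, and 2 rose and 1 fell in Rag2c/c p53-/- lymphomas, with medians of 0.07 and -0.22. In all, 25.0% and 18.8% of the 16 changed, below the 29.5% and 23.6% of all genes. The split by side was made after the values were known. Gnat2, among those that rose in both groups, was under 10 in every thymus and could only be called higher.

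Kcna2, a voltage-gated potassium channel gene, was the nearest tested gene on the lower side, 104.4 kb away. It had 43, 18, 12, 26 and 23 normalized counts in Atm-/- lymphomas, 45, 27, 44, 21 and 50 in Rag2c/c p53-/- lymphomas and 185, 153 and 219 in WT thymus. All lymphomas were below all thymuses, with log2 differences of -2.98 ± 0.43 (SE, limma adjusted p = 1.52e-04) and -2.34 ± 0.43 (SE, adjusted p = 0.00113).

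Kcna3 encodes the potassium channel best known from T lymphocytes. It had 675, 73, 267, 594 and 551 in Atm-/- lymphomas, 1030, 111, 887, 188 and 585 in Rag2c/c p53-/- lymphomas and 1472, 1595 and 1823 in WT thymus. Every lymphoma was below every thymus, while the 2 lymphoma groups overlapped and the tumors varied widely. Kcna3 fell in Atm-/- lymphomas (-2.27 ± 0.78, SE, limma adjusted p = 0.0306) and did not pass in Rag2c/c p53-/- lymphomas (-1.99 ± 0.78, SE, adjusted p = 0.0592). The call in Atm-/- lymphomas ended without Atm-/- replicate 2 (-1.72) or 3 (-2.18), and without WT replicate 1 (-2.34), 2 (-2.28) or 3 (-2.18).

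Cd53, which encodes a tetraspanin of leukocytes, lies 421.1 kb from Cym. It had 573, 783, 319, 679 and 605 in Atm-/- lymphomas, 322, 226, 711, 378 and 266 in Rag2c/c p53-/- lymphomas and 3330, 3271 and 3207 in WT thymus. The thymuses stood well apart from every lymphoma. The log2 difference was -2.52 ± 0.34 (SE, limma adjusted p = 9.16e-05) in Atm-/- and -3.22 ± 0.34 (SE, adjusted p = 2.71e-05) in Rag2c/c p53-/- lymphomas, the lowest of the 29 neighbours in the latter.

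Between Cd53 and Kcna2, non-coding genes were also lower. The long non-coding RNA gene AI504432 had 1776 to 2663 in Atm-/- and 1939 to 2964 in Rag2c/c p53-/- lymphomas against 5427 to 6279 in WT, and fell in both (-1.42 ± 0.17 and -1.27 ± 0.17, SE, limma adjusted p = 3.80e-05 and 1.42e-04). A930002I21Rik had 95 to 875 in Atm-/- lymphomas, a mean of 394.6 ± 133.9 (SD, n = 5) in Rag2c/c p53-/- lymphomas and 984 to 1180 in WT, and fell in Atm-/- lymphomas (-2.39 ± 0.57, SE, adjusted p = 0.00441), with -1.50 in Rag2c/c p53-/- lymphomas (adjusted p = 0.0523). The antisense gene Gm27008 had 10 to 23, 15 to 41 and 112 to 131, and fell in both (-3.18 and -2.23, limma adjusted p = 1.08e-04 and 0.00170). Gm27008 overlaps Kcna3, AI504432 and A930002I21Rik on the opposite strand. The strand setting of the counting is not given in the sources used here, so the reads of these 4 genes may not be independent.

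Farther out on the lower side, Dram2, a lysosomal membrane protein gene, had 721 to 774 in WT, 318 to 683 in Atm-/- and 199 to 377 in Rag2c/c p53-/- lymphomas. It fell in the latter (-1.34 ± 0.25, SE, limma adjusted p = 0.00136) and was at -0.60 in the former (adjusted p = 0.0681). Lrif1 had 458 to 731, 637 to 733 and, in WT, 1246 to 1301, and fell in Atm-/- lymphomas (-1.05, limma adjusted p = 3.68e-04), with -0.88 in Rag2c/c p53-/- lymphomas, under the threshold of 1. A transcript of unknown coding status that overlaps Lrif1 (ENSMUSG00000102780) had 14 to 26, 1 to 22 and, in WT, 49 to 103. It fell in both groups (-1.98 and -2.65, limma adjusted p = 0.0353 and 0.0100). Its first call ended without Atm-/- replicate 2 (-1.91), 3 (-1.86) or 4 (-1.97) and without WT replicate 1 (-1.79) or 3 (-1.82), and its second without WT replicate 1 (-2.47).

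On the higher side, Gstm1 and Gstm4 encode glutathione S-transferases of the mu class, which conjugate glutathione to reactive compounds. Gstm1, 790.5 kb away, had 1963, 971, 1162, 1608 and 943 in Atm-/- lymphomas, 755, 743, 474, 521 and 638 in Rag2c/c p53-/- lymphomas and 293, 305 and 318 in WT thymus. The 3 groups did not overlap. Gstm1 rose in Atm-/- (2.06 ± 0.25, SE, limma adjusted p = 4.22e-05) and in the Rag2c/c p53-/- group (1.01 ± 0.25, SE, adjusted p = 0.00667). The latter lies at the threshold of 1 and ended without Rag2c/c p53-/- replicate 1 (0.94), 2 (0.94) or 5 (1.0) or WT replicate 1 (0.98), and with a pseudocount of 10 (0.99).

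Gstm4 had 225 to 377 in Atm-/-, 141 to 372 in Rag2c/c p53-/- lymphomas and 107 to 150 in WT thymus. It rose in Atm-/- lymphomas (1.06 ± 0.30, SE, limma adjusted p = 0.0124), a call that ended without Atm-/- replicate 1 (0.93) or WT replicate 2 (0.95), and was at 0.95 in Rag2c/c p53-/- lymphomas (adjusted p = 0.0255). Gstm2, Gstm5 and Gstm7 did not pass in either group. The mu class genes are close copies of each other, so uniquely mapped reads may leave their levels uncertain.

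Gnat2, which encodes the transducin of cone photoreceptors, had 10 to 28 in Atm-/-, 16 to 34 in Rag2c/c p53-/- lymphomas and 3 to 6 in WT thymus, and rose from that low level in both (1.79 ± 0.43 and 2.16 ± 0.43, SE, limma adjusted p = 0.00480 and 0.00191). The first of these calls ended with a pseudocount of 10 (0.93). No thymus reached the 10 needed for a test, so Gnat2 entered it only through the lymphomas and could only be called higher. Cyb561d1, a transmembrane cytochrome gene 974.0 kb away, was the 1 gene that fell on this side. It had 367 to 534, 328 to 609 and, in WT, 939 to 1231, with log2 differences of -1.25 ± 0.22 and -1.28 ± 0.22 (SE, limma adjusted p = 5.64e-04 and 6.77e-04).

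**Figure D3:**
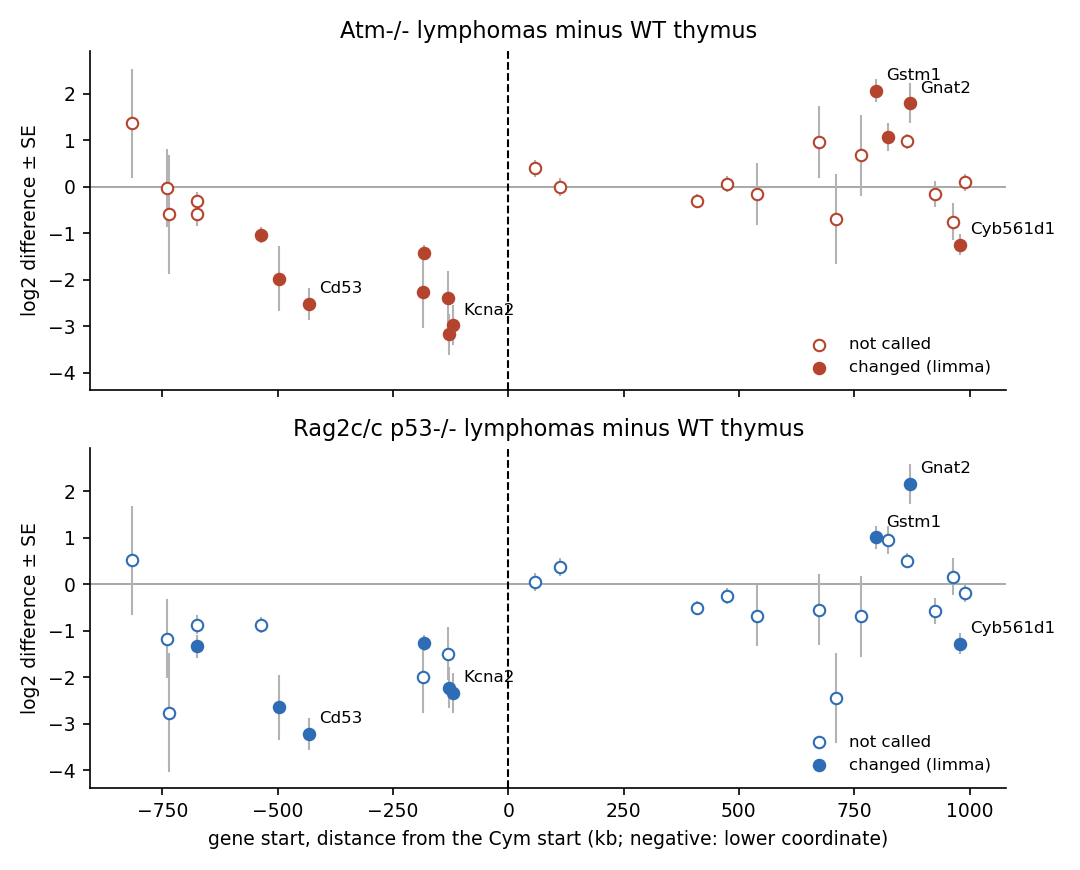
The log2 difference ± SE of the 29 tested neighbours in each lymphoma group against WT thymus, by the distance of their start from the start of Cym in kb, where filled points were called changed by limma and the dashed line marks Cym. The called points left of Cym all lie below 0, and those right of it hold Gstm1 and Gnat2 above 0 and Cyb561d1 below.

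Library by library, the median difference of the 13 lower-side genes from the WT mean lay between -2.60 and -0.82 in Atm-/- and between -1.91 and -1.19 in Rag2c/c p53-/- lymphomas. In the WT libraries it was -0.05 to 0.03. The 739 tested genes of chromosome 3 had medians of -0.14 to -0.07 and -0.41 to -0.15 in the same lymphomas. On the higher side the medians were -0.24 to 0.31 in Atm-/- and -0.69 to 0.10 in Rag2c/c p53-/- lymphomas. All 10 lymphomas were thus below the median of the chromosome on the lower side. Most tested neighbours already had a clear level in thymus, so their medians cannot be set against the size of the difference at Cym. A regional cause of the level of Cym was not tested.

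The width of the window mattered. The mean over libraries of the median over all tested neighbours was -0.25 in Atm-/- and -0.72 in the Rag2c/c p53-/- group within 1 Mb. Within 0.5 Mb it was -1.46 and -1.19, with 8 and 5 of 12 tested genes called. Within 2 Mb it was 0.02 and -0.40, with 19 and 11 of 58 called. These are 66.7% and 41.7% within 0.5 Mb and 32.8% and 19.0% within 2 Mb, beside 29.5% and 23.6% of all tested genes, so the wider window is near that background.

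**Figure D4:**
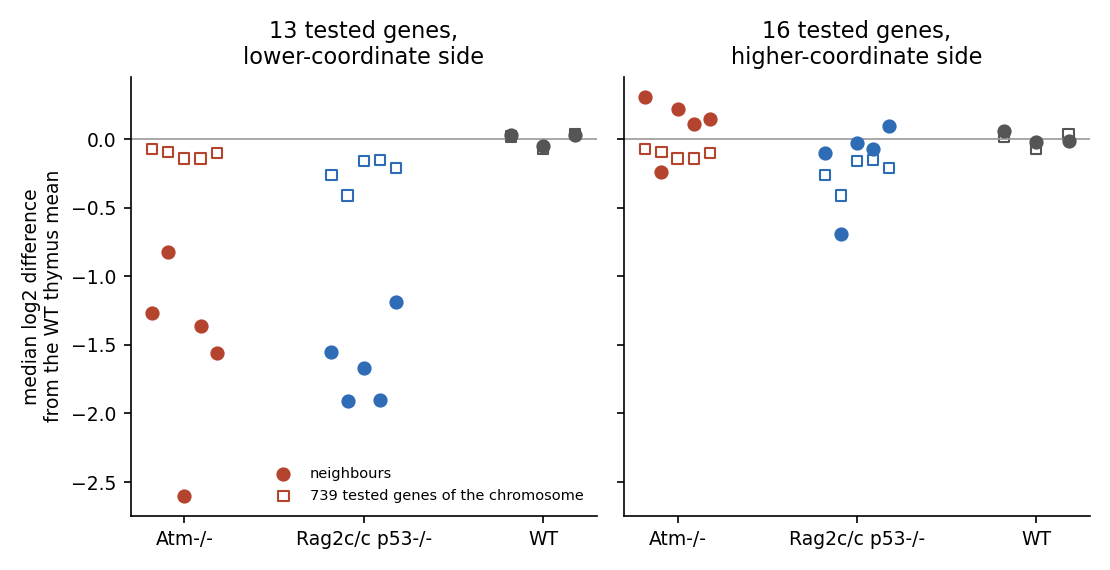
Median log2 difference from the WT thymus mean in each library, for the 13 tested neighbours on the lower-coordinate side and the 16 on the higher side (filled circles), beside all 739 tested genes of the chromosome (open squares). On the lower side the 10 lymphomas lie between -2.60 and -0.82, and on the higher side they lie between -0.69 and 0.31.

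Between the 2 lymphoma groups, 1 of the 29 neighbours changed, Gstm1, which was higher in Atm-/- lymphomas (1.05 ± 0.22, SE, limma adjusted p = 0.00740). Over all tested genes 7.84% changed in this comparison, 3.51% higher and 4.33% lower in Atm-/- lymphomas. The call ended without Atm-/- replicate 1 (0.89) or 4 (0.96) or Rag2c/c p53-/- replicate 3 (0.95) or 4 (0.99). Of the 5 tested proteases other than Cym, 0 changed between the lymphoma groups by limma, with Ctse past the adjusted p alone.

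Over the 10 lymphomas, 5 of 15863 genes compared had r above 0.9 with Cym on the log2 scale, and the median r was -0.01. These were Adipor2, an adiponectin receptor gene (r = 0.93, rho = 0.89), Mief2 of mitochondrial division (0.92 and 0.92), Cog2 of the Golgi complex (0.92 and 0.85), the vomeronasal receptor gene Vmn2r96 (0.91 and 0.89) and Tgtp2, an interferon-inducible GTPase gene (0.91 and 0.87). Without the 2 lymphomas farthest from the median of Cym, Atm-/- replicate 4 and Rag2c/c p53-/- replicate 4, r was 0.80 to 0.87. The 5 were picked as the most alike of 15863 genes, and the libraries share their size factors.

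Adipor2, Mief2 and Cog2 spanned a narrower range than Cym over the lymphomas. Adipor2 had 2058 to 2945 normalized counts in Atm-/-, 2142 to 3401 in Rag2c/c p53-/- lymphomas and 2944 to 3119 in WT, and Vmn2r96 had 0 to 6, 0 to 15 and, in WT, 16 to 31. None of the 5 had the thymus pattern of Cym, and over all 13 libraries their r with Cym was between -0.89 and -0.16. Tgtp2 in particular had 30 to 72 and 25 to 78 in the lymphomas but 637 to 756 in WT thymus, and fell in both groups (-3.77 and -3.85, limma adjusted p = 2.08e-05 and 2.88e-05). Vmn2r96 fell in Atm-/- lymphomas (-2.99, limma adjusted p = 0.0196), a call that ended without WT replicate 1 (-2.90) or 3 (-2.81). It was at 0 in Atm-/- replicates 2 and 4 and Rag2c/c p53-/- replicate 4, the lymphomas with the least Cym. The r of Vmn2r96 thus rests on 0 against a few reads. Tgtp2 and Vmn2r96 both belong to families of close copies, so uniquely mapped reads may leave their levels uncertain.

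Over all 13 libraries the genes most like Cym were Reep1 (r = 0.98), Aif1l (0.98), Eif2b3 (0.97), Asns (0.97) and Tada2a (0.97). With the lymphomas and the thymuses in separate clusters, this r describes mainly the distance between the clusters. Within the 10 lymphomas r was 0.74, 0.62, 0.38, 0.65 and 0.40. Asns, which encodes asparagine synthetase, had 489 to 3841 in Atm-/-, 1002 to 4090 in Rag2c/c p53-/- lymphomas and 16 to 28 in WT thymus. Reep1, of the endoplasmic reticulum, had 658 to 1752, 897 to 1510 and 70 to 83. Aif1l, an actin-binding protein gene, had 406 to 1977, 1077 to 1895 and 0 to 14. All 5 were chosen for likeness to Cym, so their rise in the lymphomas is given without a test.

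**Figure D5:**
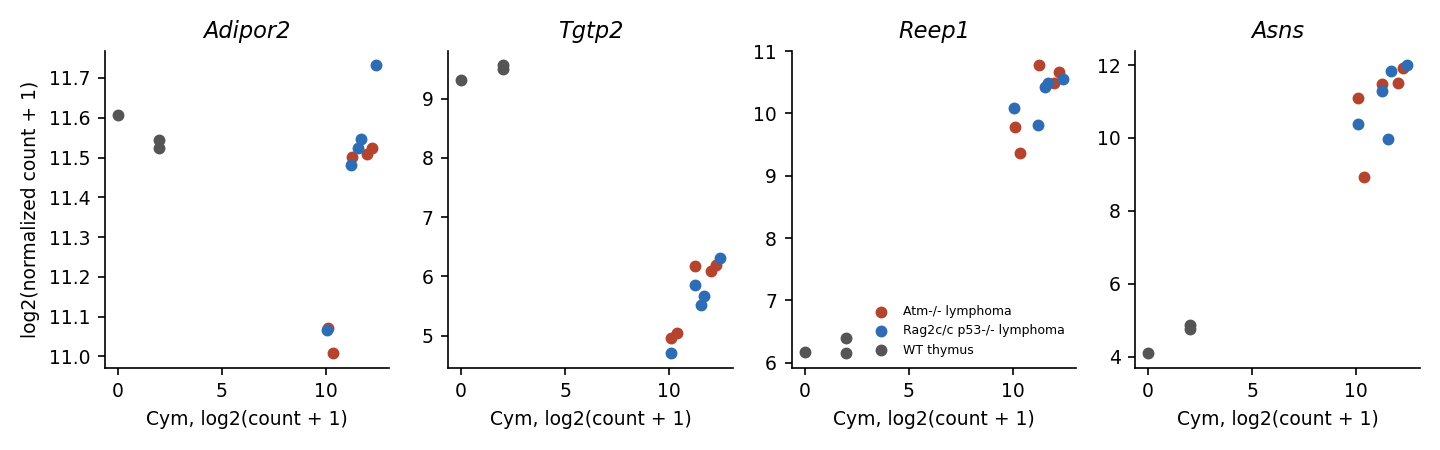
Adipor2, Tgtp2, Reep1 and Asns against Cym in each library, both as log2(normalized count + 1), coloured by group. Adipor2 and Tgtp2 follow Cym within the 10 lymphomas (r = 0.93 and 0.91) while the 3 thymuses lie off that line, and Reep1 and Asns separate the lymphomas from the thymuses.

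Of the 29 tested neighbours, Gstm4 had the highest r with Cym over the 10 lymphomas (r = 0.74, rho = 0.63), and Cd53 had the lowest (r = -0.55, rho = -0.66). For the genes nearest to Cym among those tested, r was 0.26 for Kcna2 and -0.15 for Lamtor5. The points share their libraries, and r is a description.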

How the data were processed

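RNA sequencing libraries of 5 Atm-/- lymphomas, 5 Rag2c/c p53-/- lymphomas and 3 WT thymuses were grouped by their labels. Per the labels and the methods of the study, the authors used STAR 2.4.0g1 for alignment to GRCm38 (annotation of Ensembl release 78), discarded duplicates with Picard, kept uniquely mapped reads, counted them with HTSeq-count and normalized with DESeq2 1.6.3. These methods describe the WT thymuses and other tumors and are taken to hold for these lymphomas. The deposited values are a score, normalized counts that the authors rounded to whole numbers, with 0 other columns of samples. The authors' fold changes and p-values against WT were not used.

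Depth was estimated from the worth of 1 read in each library (6.37 to 39.6 M reads). Genes that reached 10 in no fewer than 3 libraries were tested with limma 3.58.1 in R 4.3.3 on log2(value + 1), with 13 libraries in 3 groups, a mean-variance trend, robust moderation and Benjamini-Hochberg adjustment over 15872 genes. The pseudocount of 1 understates the change of low genes. The fit was tested on simulated data. Libraries carry separate thymus or tumor names, but the labels do not tie them to animals, so p-values measure the spread between these samples. Exon lengths were those of GENCODE vM21, and transcripts were compared with BLAST 2.17.0.

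Cym, the lists and the rule for named genes were chosen with earlier results of these data known. The rule covered the nearest genes on each side, up to 12 changed neighbours by size of change, the 5 genes most like Cym over 10 and over 13 libraries, protease and stomach genes with a value of at least 10, and the most abundant gene of each cell list. Prok1, Lrif1, Gm9008, Cd8a, Rag1, Cd79b, Foxn1, Col1a1, Col1a2, Col3a1, Sparc and Cdh5 were named besides, after their values were seen. So were Cd53 and Gstm4 beside r, and genes given as near 0. Alternatives covered scaling, pseudocount, filter, moderation, thresholds, groups in the fit, window and leaving out each library.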

Additional observations from a re-analysis of the deposited data

Results flagged for a closer look

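In 30 groups of 5 lymphomas looked at, 3 had a sample far from the other 4, by a gap past Dixon's 95% critical value for 5 samples, and chance alone flags about 1 in 20 groups. Gm27008 had 23 normalized counts in Atm-/- replicate 2, where the gap was 0.769 of the range. A930002I21Rik, which Gm27008 overlaps, had 875 in the same lymphoma, with a gap of 0.850 of the range. Gstm4 had 377 in Atm-/- replicate 1, with a gap of 0.770. The 30 groups did not cover every gene named above, and genes outside them also had samples far from the rest. Blk had 413 in Rag2c/c p53-/- replicate 5 against 53 to 106 in the other 4. Hbb-bs had 2614 in Rag2c/c p53-/- replicate 2 against 508 to 848, and Bace1 had 128 in Atm-/- replicate 1 against 38 to 60. Gstm1 differed between the lymphoma groups by 1.05 on the log2 scale, higher in Atm-/- lymphomas (limma adjusted p = 0.00740). Genotype and strain cannot be told apart in this difference.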

How the results depend on the processing

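Of 933 values of 41 named gene differences under alternatives, 902 kept their call, 31 lost it and 0 changed sign. The 31 fell on 9 differences. Those lost with a pseudocount of 10 were Gnat2 in Atm-/- (0.93), Gstm1 in Rag2c/c p53-/- (0.99) and Ghrl in Rag2c/c p53-/- lymphomas (0.79). By adjusted p alone, 7078 genes changed in Atm-/- and 5916 in the Rag2c/c p53-/- group, in place of 4687 and 3750, with 14 neighbours in the latter, 4 neighbours between the lymphoma groups and 1 protease (Ctse) between them. With only the compared groups in the fit, 14 neighbours changed in Rag2c/c p53-/- lymphomas. A window of 0.5 Mb gave 5 changed neighbours there and 0 between the lymphoma groups, with mean shifts of -1.46 and -1.19, and a window of 2 Mb gave 19 in Atm-/- lymphomas and 6 between the groups, with shifts of 0.02 and -0.40. The window itself sets which genes enter. The 1 stomach gene called in Rag2c/c p53-/- lymphomas became 0 with a pseudocount of 10, a filter of 50, only 2 groups in the fit or the 2 shallowest libraries left out, the last chosen after seeing the data. Leaving out each library in turn gave 3401 to 4902, 2505 to 3956 and 934 to 1315 changed genes in the 3 comparisons, 10 to 12, 8 to 12 and 0 to 4 changed neighbours, 0 to 1 proteases between lymphoma groups and 0 to 1 stomach genes in Rag2c/c p53-/- lymphomas. The neighbours between the groups numbered 3 without Atm-/- replicate 2, 4 without Atm-/- replicate 3 and 2 without Rag2c/c p53-/- replicate 2, and 0 without Atm-/- replicate 1 or 4 or Rag2c/c p53-/- replicate 3 or 4. The mean level of Cym lay between 2247 and 3192 in Atm-/-, 2457 and 3569 in the Rag2c/c p53-/- group and 1.5 and 3.0 in WT thymus. Of the 5 genes most like Cym, 0 were kept over 13 libraries, 3 by Spearman's rho and 0 without the 2 farthest lymphomas. The cause of these losses was not tested. No paired analysis was possible because the labels give no replicate numbers that tie libraries of different groups. Depth limits values under about 10 normalized counts in WT replicate 2.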
